A study of Salmo trutta with 45 samples.

Results

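This account concerns the genes that make, elongate, desaturate, bind, store and release fatty acids in the liver of brown trout exposed to glyphosate or Roundup. Members were the transcripts whose annotation, in any of the 5 count tables, held 1 of 12 search terms for fatty acid synthase, acetyl-CoA carboxylase, the ELOVL elongases, fatty acid and stearoyl-CoA desaturases, perilipins, diacylglycerol O-acyltransferases, fatty acid binding proteins, the G0/G1 switch protein or patatin-like phospholipases. The rule found 170 of the 67093 transcripts, which fall into 30 of 22434 annotated genes and into 42 of 20387 components, a component being a group of transcripts that the assembler built from overlapping reads. The elongases gave 34 transcripts of 6 genes, the diacylglycerol acyltransferases 38 of 4, the patatin-like phospholipases 32 of 6, the acetyl-CoA carboxylases 23 of 2, the fatty acid binding proteins 15 of 6, fatty acid synthase 12 of 1, the perilipins 10 of 2 and the desaturases 6 of 3. The term G0/G1 matched 0 transcripts. Of the 170 members, 158 are listed in all 5 tables and 12 in only some of them, and those 158 held 99.96% of the control reads of the members in the MR table.

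The fish were juvenile females aged 6 months, and 1 liver gave 1 library. The 12 control fish (C) received no chemical. The paper pooled them from 2 control groups, and the labels do not divide them. Exposed fish were kept for 14 days in flowing water with Roundup, a commercial glyphosate formulation, at 0.01 (LR), 0.5 (MR) or 10 (HR) mg/L glyphosate acid equivalent, or with analytical grade glyphosate at 0.01 (LG) or 10 (HG) mg/L, and each of these 5 groups had 6 fish. Glyphosate at the middle dose (MG) had 3 fish, which were not analysed here. Each treatment had 2 replicate tanks of 8 fish and the labels do not tie a fish to a tank, so p-values measure the spread between fish, some of which shared a tank. The libraries held 12908543 to 23741782 counted reads in controls and 10223638 to 33291845 in exposed fish, and the members took 1.05% of the control reads. Over 17339 genes, the absolute log2 distance of a fish to the median of the other fish of its group averaged 0.31 to 0.41 in controls and 0.33 to 0.53 in exposed fish, except for MR1 (0.77) and LG1 (0.81), which stood apart. Control distances were taken within a group of 12 and exposed distances within groups of 6, so the ranges are not fully alike. Fold changes of members that moved most when MR1 or LG1 was left out are given without it. Genes of the pathway lists described last were not refitted with a fish left out. Of the hepatocyte markers, 11 were matched, and their summed level was 88740 to 134100 CPM (counts scaled to the total of the library) in controls and 75830 to 185300 CPM in exposed fish, with the highest value in LG1. Levels in a whole liver cannot separate fewer cells of a type from less RNA per cell.

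Liver is a main site of fatty acid synthesis in fish. Acetyl-CoA carboxylase turns acetyl-CoA into malonyl-CoA, fatty acid synthase joins these units into a saturated chain, elongases and desaturases lengthen it and place double bonds in it, and diacylglycerol acyltransferases add the last chain of a triacylglycerol. Triacylglycerol is kept in droplets coated by perilipins, patatin-like lipases release the chains again, and small binding proteins carry them through the cell.

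No member gene and no member transcript passed a false discovery rate (FDR) of 0.1 in any of the 5 comparisons with controls (edgeR quasi-likelihood test, Benjamini-Hochberg adjusted over all features). Calls were also rare over all genes, at 0.0528% in LR, 0.00475% in HR and 0% in MR, LG and HG, and over all transcripts, at 0.0209% for LR, 0.00159% for MR, 0.00639% for HR, 0.00157% for HG and 0% for LG. The members with an unadjusted p under 0.05 were 7 of 30 genes in LR, against 9.43% of all genes, 4 in MR against 10.8%, 3 in HR against 8.2%, 2 in LG against 7.66% and 3 in HG against 7.44%. The transcripts gave 15 of 163 in LR (7.75% of all transcripts), 19 of 166 in MR (8.93%), 7 of 163 in HR (7.34%), 6 of 163 in LG (6.72%) and 7 of 161 in HG (6.48%). The median log2 fold change (exposed over control) of the 30 genes was 0.17 in MR, where 21 were positive, and -0.11 in HR, where 8 were positive. It was -0.07 in LR (10 positive), -0.05 in LG (14 positive) and -0.05 in HG (9 positive), beside 0.00 to 0.01 over all genes, of which 50 to 51.8% were positive. These 5 comparisons share the same 12 controls. Other tests called a few members. The exact test of edgeR called 9 transcripts in MR (0.992% of all transcripts), 7 of plin2 and 1 each of pnpla2/3 and pnpla7a, and 1 of plin2 in HR (0.671%). DESeq2 called 5 in MR (0.743%). The paper describes edgeR with a spread estimated for each transcript (tagwise dispersion, prior df 10), a setting used here in the exact test only. Transcripts that the paper listed are therefore not at the same measure as the quasi-likelihood calls.

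**Figure D1:**
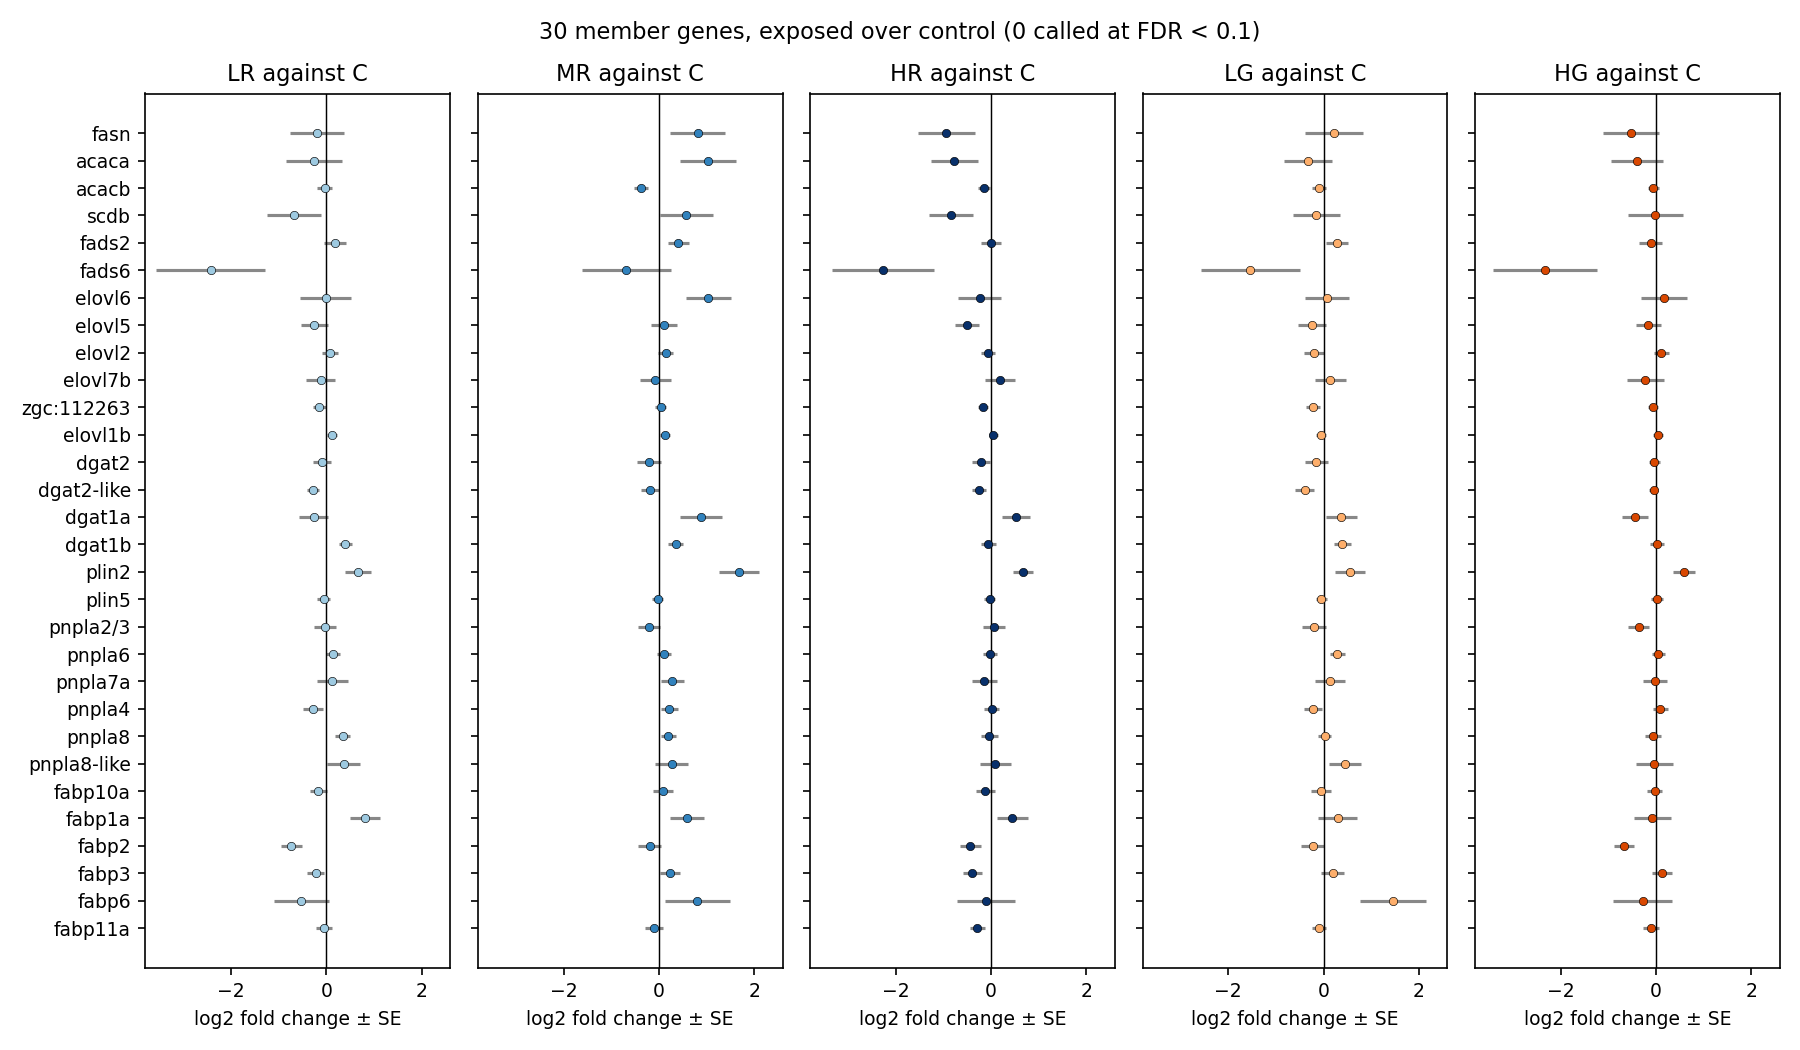
Log2 fold change (exposed over control, with its standard error) of the 30 member genes in each of the 5 exposed groups, from the gene-level fit with 6 exposed and 12 control fish per comparison. No gene passed FDR 0.1, plin2 was positive in all 5 groups, and the widest errors belong to fads6.

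The genes for making the chain varied widely among untreated fish. The acetyl-CoA carboxylase gene acaca (ENSDARG00000078512), whose product supplies malonyl-CoA, was at 28.7 to 729.6 CPM with a median of 87.6 CPM in the 12 controls. Fatty acid synthase, fasn (ENSDARG00000087657), was at 3.25 to 101.4 CPM with a median of 13.4 CPM. The stearoyl-CoA desaturase scdb (ENSDARG00000030265), which places the first double bond, was at 47.4 to 1158 CPM with a median of 336.1 CPM, and elovl6 (ENSDARG00000004402), which lengthens the product of fatty acid synthase, at 7.03 to 120.7 CPM with a median of 32.0 CPM. In each of these 4 genes C3 was the highest control and C9 the lowest. The highest control exceeded the lowest 31.2-fold in fasn, 25.5-fold in acaca, 24.4-fold in scdb and 17.2-fold in elovl6.

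That spread was unusual beside other genes and was not shared by all members. The standard deviation (SD) of log2 CPM over the 12 controls was 1.35 in fasn, 1.196 in scdb, 1.18 in elovl6 and 1.17 in acaca, above that of 99.0%, 98.4%, 98.3% and 98.2% of the 17339 genes with a mean of at least 1 CPM, whose median SD was 0.35. The bile acid binding protein gene fabp6 had 1.34, but at a median of 1.01 CPM. At the other end were elovl1b, an elongase of very long chains, with 0.15, and dgat2 and dgat2-like, of the family that completes triacylglycerol, with 0.18 and 0.17. Only 3.28%, 6.02% and 8.36% of genes had a lower SD than elovl1b, dgat2-like and dgat2. Of the 29 member genes in this comparison, 16 lay above the median of all genes and 7 above the 90th percentile (0.66).

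**Figure D2:**
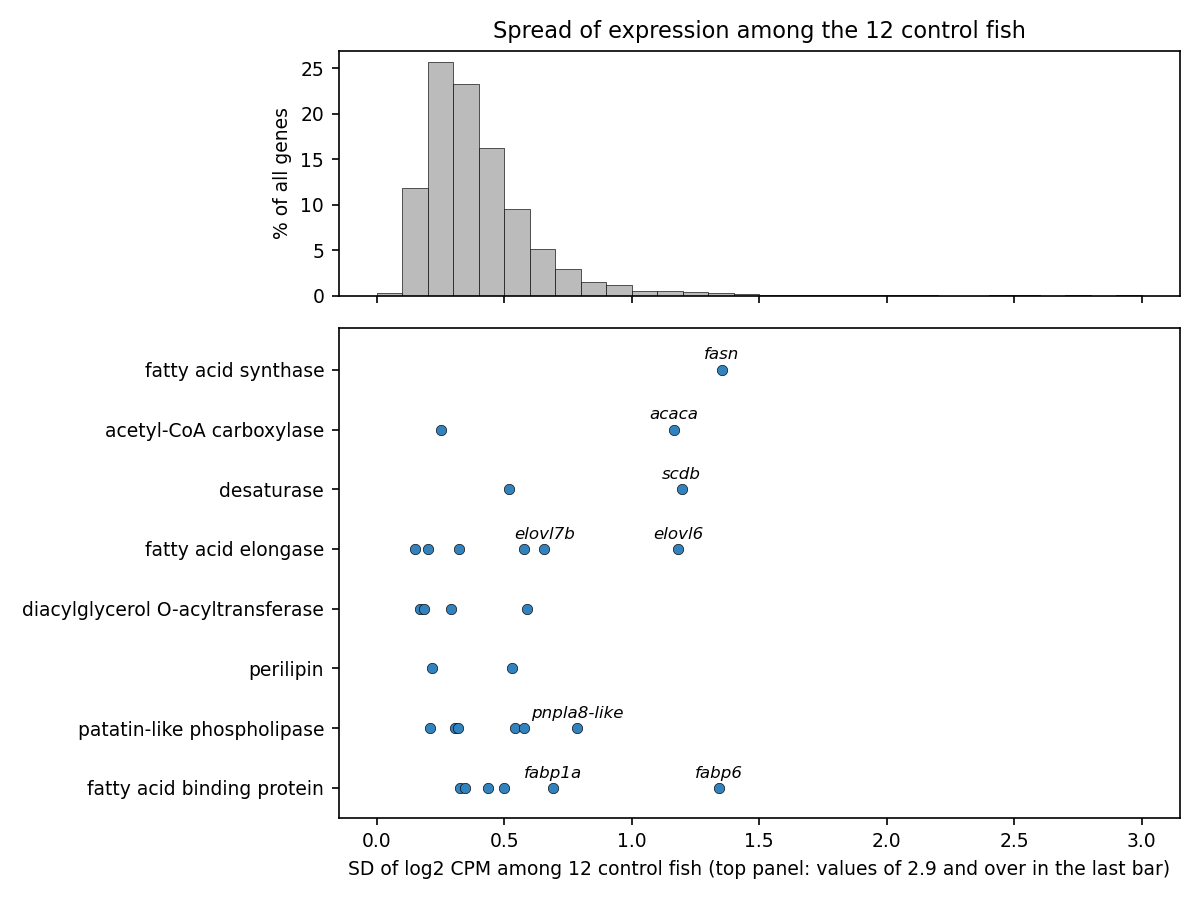
SD of log2 CPM among the 12 control fish, as a histogram of 17339 genes and as points for 29 member genes by family. The genes fasn, fabp6, scdb, elovl6 and acaca lie beyond 1.1, while elovl1b, dgat2-like and dgat2 lie below 0.2.

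The 4 synthesis genes varied together from fish to fish. They were grouped after their values were seen, so the correlations are descriptions, and the points share libraries and their scaling. Over the 12 controls, Pearson's r between pairs of log2 CPM ran from 0.677 (scdb and elovl6) to 0.879 (fasn and elovl6), with Spearman's rho of 0.552 to 0.895. Leaving out the 2 fish farthest from the median left r between 0.209 (scdb and elovl6) and 0.865 (fasn and acaca). Over the 30 exposed fish, taken as deviations from their group means, r ran from 0.571 (fasn and scdb) to 0.883 (acaca and scdb), and from 0.622 to 0.868 without 2 fish. Within MR, for example, fish MR2 was highest for fasn, acaca and scdb and second highest in elovl6, behind MR5.

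Some other genes of the pathway had a high r with the mean of these 4. Over 17335 other genes, 1.26% had r above 0.7 in controls and 0.156% in both controls and exposed fish. Of 25 other members, 1 was above 0.7 in controls, elovl5 (0.783), which lengthens polyunsaturated chains, and it had 0.736 in exposed fish. Of 32 genes of a list of precursors and regulators, 6 did, among them the acetyl-CoA synthetase acss2 (0.889), idh1 (0.771) and pgd (0.729), which make NADPH, and thrsp (0.763), a small protein linked to lipid synthesis in mammals. In exposed fish thrsp had 0.893, pgd 0.515, acss2 0.443 and idh1 0.406, so only thrsp of this list was above 0.7 in both sets. The delta-6 type desaturase fads2, which starts the synthesis of polyunsaturated chains, had 0.523 in controls and 0.771 in exposed fish. Of 38 genes of glycerolipid assembly, droplets and lipolysis, 2 had r above 0.7 in controls and 0 in both sets, a lipoprotein lipase gene (lpl-2, 0.802) and gpam (0.727), the first acyltransferase of glycerolipid synthesis, and bscl2, which encodes the droplet protein seipin, had -0.722. In exposed fish lpl-2 had only 0.113 and bscl2 0.00.

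**Figure D3:**
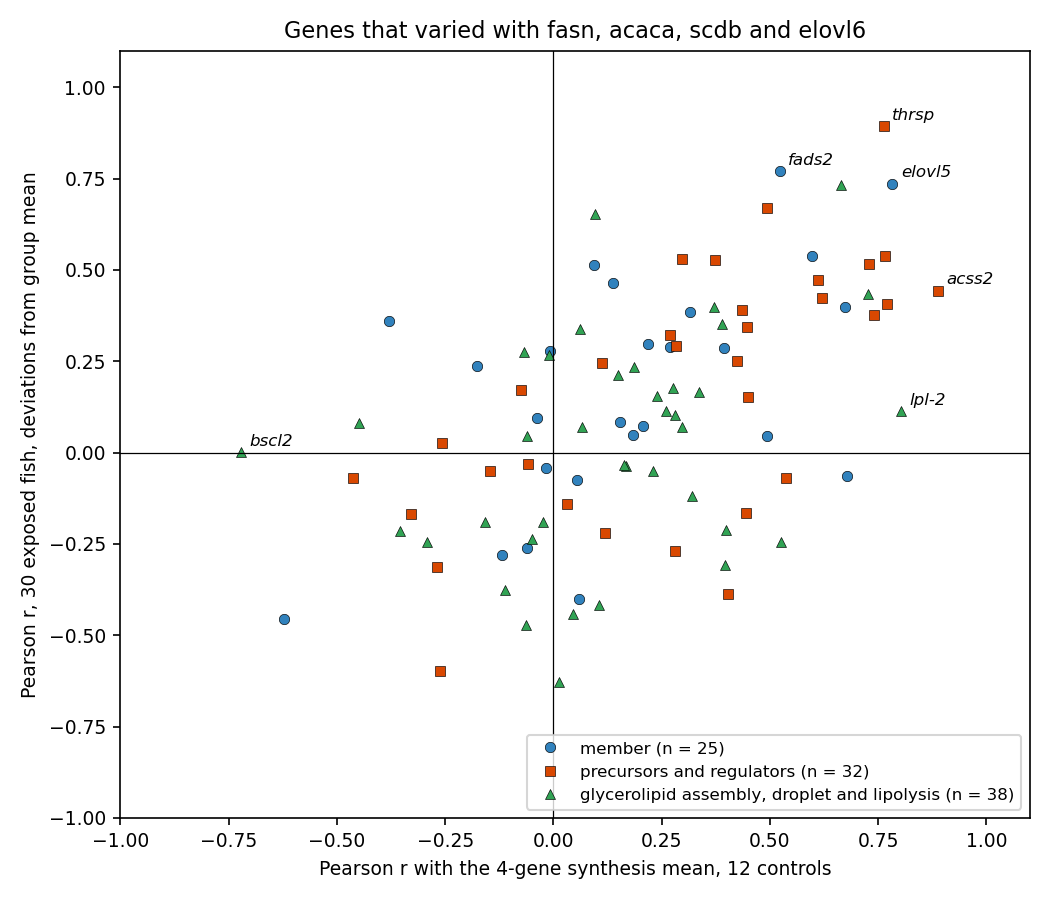
Pearson's r of log2 CPM with the mean of fasn, acaca, scdb and elovl6 in 12 controls (x axis) and in 30 exposed fish as deviations from their group means (y axis), for 25 other members, 32 precursor and regulator genes and 38 glycerolipid genes. The genes thrsp and elovl5 are high on both axes, whereas lpl-2 is at 0.802 in controls and 0.113 in exposed fish.

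Exposed fish stayed mostly within the control range of the synthesis genes. In MR, fasn was at 15.3 to 98.0 CPM (median 36.7 CPM) and all 6 fish were above the control median, though none was above C3. Its log2 fold change was 0.81 (SE 0.58, adjusted p = 0.654 by the quasi-likelihood test) and 0.43 without MR2, and the exact permutation test of mean log2 CPM gave p = 0.083. In HR fasn was at 6.92 to 25.7 CPM (median 11.2 CPM) with a log2 fold change of -0.94 (SE 0.59), and the values in LR, LG and HG were -0.19, 0.22 and -0.52. Without LG1, which had 79.7 CPM, the LG value was -0.35.

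The groups overlapped for acaca, and HG1 (25.5 CPM) alone lay outside the control range. The MR fish fell into 3 at 359.9 to 726.2 CPM (MR2, MR5 and MR6) and 3 at 58.2 to 95.3 CPM, and the log2 fold change was 1.02 (SE 0.59, adjusted p = 0.548 by the quasi-likelihood test) and 0.63 without MR2. It was -0.77 in HR (SE 0.50), where the 6 fish spanned 52.2 to 155.8 CPM, and -0.26, -0.33 and -0.40 in LR, LG and HG. Without LR1, which was at 421.3 CPM against 161.7 CPM in the next fish, the LR value was -1.07. The second carboxylase gene, acacb (ENSDARG00000061994), whose malonyl-CoA restrains fatty acid oxidation at mitochondria in mammals, varied little: 21.7 to 43.0 CPM in controls and 19.4 to 37.0 CPM in MR. Its MR value was -0.37 (SE 0.15, unadjusted p = 0.0214, adjusted p = 0.359 by the quasi-likelihood test), with 5 of 6 fish below the control median, and the other groups lay between -0.15 and -0.04.

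Among the elongases, elovl6 in MR had the smallest p. The 6 MR fish were at 33.9 to 143.4 CPM with a median of 70.9 CPM, all above the control median of 32.0 CPM and 1 above every control. The log2 fold change was 1.04 (SE 0.47, adjusted p = 0.424 by the quasi-likelihood test), the exact permutation p was 0.0394, and leaving out 1 fish at a time gave 0.77 to 1.19. In LR, HR, LG and HG elovl6 lay between -0.24 and 0.17, each within 1 SE of 0. The gene elovl5 (ENSDARG00000004979) was at 84.1 to 342.5 CPM in controls and 81.4 to 170.5 CPM in HR, where its log2 fold change was -0.51 (SE 0.25, adjusted p = 0.609 by the quasi-likelihood test) with 5 of 6 fish below the control median. The related elovl2 (ENSDARG00000045414), which acts on longer polyunsaturated chains, lay between -0.21 and 0.14 in the 5 groups. Transcripts of elovl5 and elovl2 belong to 1 component, so reads may be split between them. The other 3 elongases, elovl1b, elovl7b and zgc:112263, had fold changes between -0.22 and 0.19.

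The desaturase fads2 (ENSDARG00000019532) was at 812.6 to 2817 CPM in controls (median 1304 CPM) and 1252 to 2349 CPM in MR (median 2075 CPM). Its log2 fold change in MR was 0.41 (SE 0.22, adjusted p = 0.51 by the quasi-likelihood test), with 5 of 6 fish above the control median, and it lay between -0.11 and 0.29 elsewhere. The gene scdb, chosen after its values were seen, ran from 47.3 to 1676 CPM in MR alone and its fold changes were 0.58 in MR (SE 0.56), -0.83 in HR (SE 0.46), -0.69 in LR (SE 0.57), -0.15 in LG and -0.01 in HG. It rests on 1 transcript of a component that also holds 10 transcripts with hits to other genes. The third desaturase, fads6, whose substrate is not settled, had medians of 0.07 to 0.31 CPM in all 6 groups, and its fold changes were -2.43 to -0.68. Among controls C1 was at 5.38 CPM and C10 at 2.04 CPM around a median of 0.22 CPM. Fits without a control fish were not run.

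**Figure D4:**
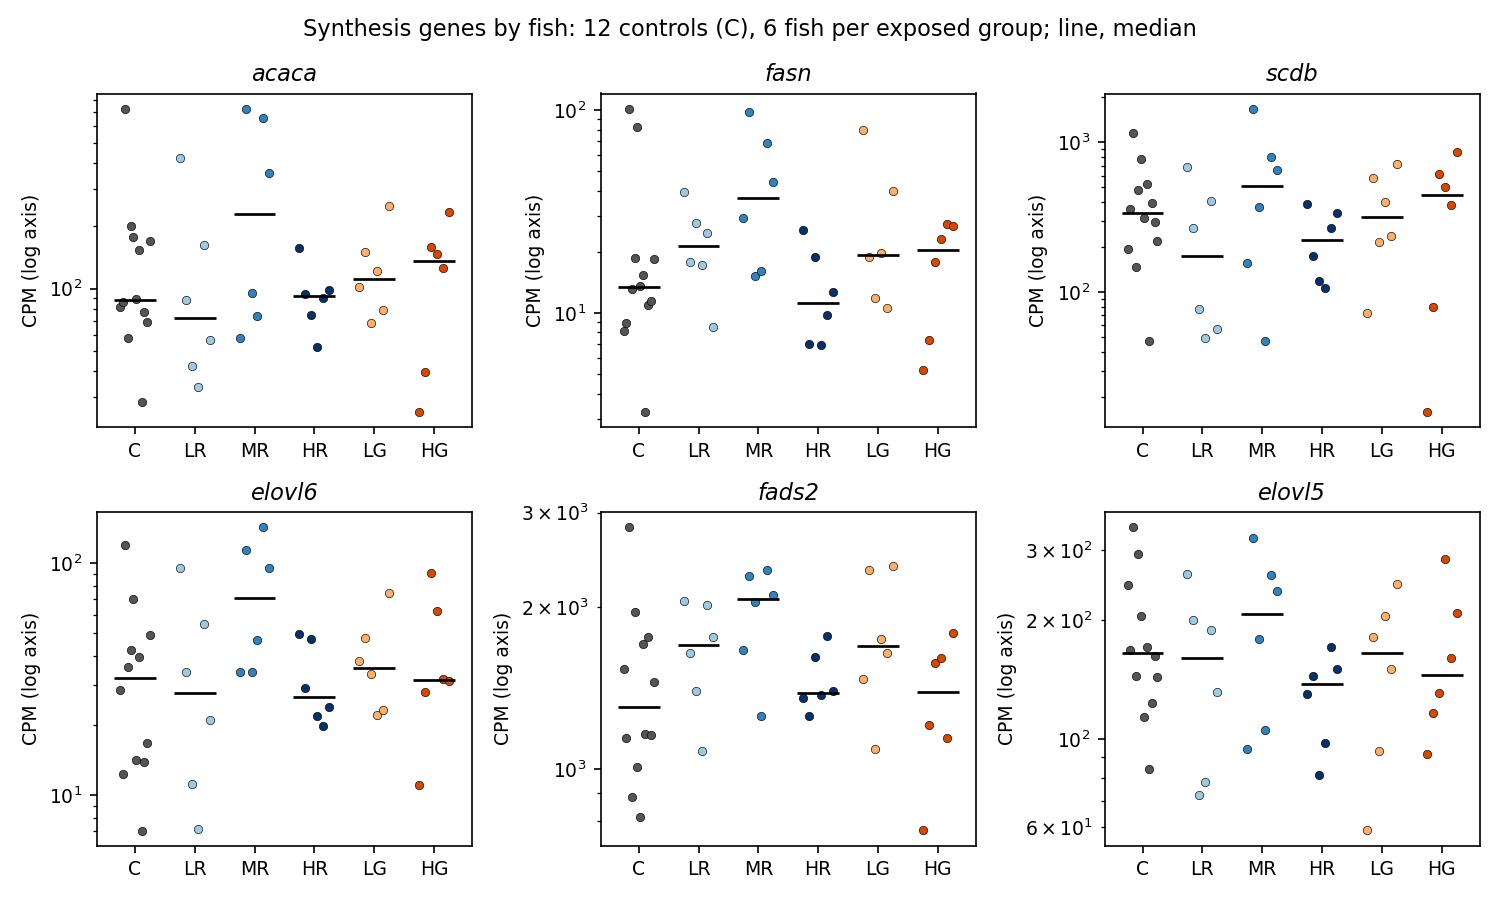
CPM (log axis) of 6 genes of fatty acid synthesis in each of 12 control and 30 exposed fish, with the median of each group as a line. The controls span 28.7 to 729.6 CPM for acaca and 3.25 to 101.4 CPM for fasn, and the MR medians (227.6 and 36.7 CPM) lie within that span.

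The member with the smallest p in MR and in HR was plin2 (ENSDARG00000042332), which encodes perilipin 2, the coat protein of lipid droplets in liver. In the 12 controls it was at 11.3 to 35.8 CPM with a median of 25.4 CPM. In MR it was at 11.2, 21.5, 31.4, 60.4, 92.5 and 260.9 CPM, so 3 fish (MR1, MR2 and MR4) exceeded every control and 1 (MR5) lay below them all. In HR the fish were at 26.4 to 53.3 CPM (median 36.0 CPM), with none below the control median and 3 above the highest control. LR spanned 19.6 to 82.2 CPM, LG 11.1 to 76.0 CPM and HG 22.7 to 55.6 CPM, with 2 fish above every control in each, making 12 of the 30 exposed fish.

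The log2 fold change of plin2 was 1.69 in MR (SE 0.43, adjusted p = 0.179 by the quasi-likelihood test), and the exact permutation test gave p = 0.0482. By the exact test of edgeR and by DESeq2 the adjusted p in MR was 0.00595 and 0.0561, where 1.27% of all genes were called by either. The value depended on MR1: without this fish it was 0.81, and without MR5 it was 1.91 (adjusted p = 0.0641 by the quasi-likelihood test). In HR it was 0.66 (SE 0.21, adjusted p = 0.354 by the quasi-likelihood test, exact permutation p = 0.00991) and 0.55 to 0.75 with 1 fish left out. In LR it was 0.65 (SE 0.27) but 0.30 without LR3, in HG 0.58 (SE 0.23) and 0.42 to 0.68 with 1 fish left out, and in LG 0.56 (SE 0.32) but 0.22 without LG1. The direction was thus positive in all 5 groups, which share the controls, and no adjusted p by the quasi-likelihood test passed the threshold with all fish kept. The study itself listed plin2 transcripts among those that changed in these fish, so these values are not independent evidence.

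All 7 transcripts of plin2 come from 1 component and share reads. Their log2 fold changes in MR were 1.16 to 2.40, largest in comp119684_c1_seq6 (2.40, SE 0.57) and comp119684_c1_seq7 (2.34, SE 0.57), and the adjusted p was 0.200 and 0.210 by the quasi-likelihood test. These same transcripts had unadjusted p under 0.05 in all 5 groups, with 1.02 and 1.03 in LR and 0.89 and 0.83 in HG. The other perilipin gene, plin5, which tethers droplets to mitochondria in mammals, was at 10.3 to 17.2 CPM in controls, and its fold changes lay between -0.06 and 0.02.

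The symbol g0s2 (ENSDARG00000078859), an inhibitor of triacylglycerol lipase in mammals, was given to 2 transcripts that do not carry the words G0/G1, so they are no members, and they were chosen after their values were seen. The paper had counted 2 G0S2 transcripts among those raised most, in MR, HR and LG, so the values below are not independent evidence. The gene was at 0.44 to 5.56 CPM in controls and reached 446.9 CPM in MR1, 357.4 CPM in LG1, 104.7 CPM in HR3, 75.9 CPM in MR4 and 48.9 CPM in LR3. In all, 10 of 30 exposed fish exceeded every control, and 9 of these 10 were among the 12 fish with plin2 above every control. The group medians were 1.51 to 1.88 CPM in LR, MR, LG and HG, near that of controls (1.75 CPM). In HR the median was higher, at 4.30 CPM, and HR1, HR3 and HR4 exceeded every control. The fold changes depended on single fish to differing degrees: the values of 5.13 for MR (adjusted p = 0.123 by the quasi-likelihood test), 4.69 for LG (0.258), 3.17 for HR (0.184) and 2.03 for LR (0.404) became 2.68 without MR1, 1.32 without LG1, 1.24 without HR3 and 0.01 without LR3. The exact test of edgeR gave g0s2 an adjusted p of 3.63e-05 for MR, 0.000127 for LG and 0.00364 for HR, where it called 1.27%, 0.583% and 0.837% of all genes, and 0.161 for LR. DESeq2 gave an adjusted p of 0.00258 for MR, 0.0115 for LG and 0.0586 for HR, where it called 1.27%, 0.108% and 0.666%, and 0.329 for LR.

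Within the exposed groups plin2 followed g0s2. Pearson's r of log2 CPM was 0.833 and Spearman's rho 0.782 over the deviations of 30 fish (r was 0.757 without MR1 and LG1), while over the 12 controls they were 0.277 and 0.392. The members most opposed to plin2 in exposed fish were dgat2 (r = -0.788) and elovl5 (-0.695), which had -0.228 and -0.292 in controls, and dgat1a went with it (0.721 in exposed fish and 0.123 in controls). Without MR1 and LG1 these 3 had -0.677, -0.61 and 0.624, and pnpla2/3 (-0.681) was the most opposed. LR3, HR3 and MR4, the exposed fish next farthest from their groups (0.53, 0.53 and 0.50 over 17339 genes), stayed in. How far each r rests on those fish was not tested. The share of all genes with such an r with plin2 is not given here. These correlations are descriptions without a test, over fish that share libraries and scaling.

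**Figure D5:**
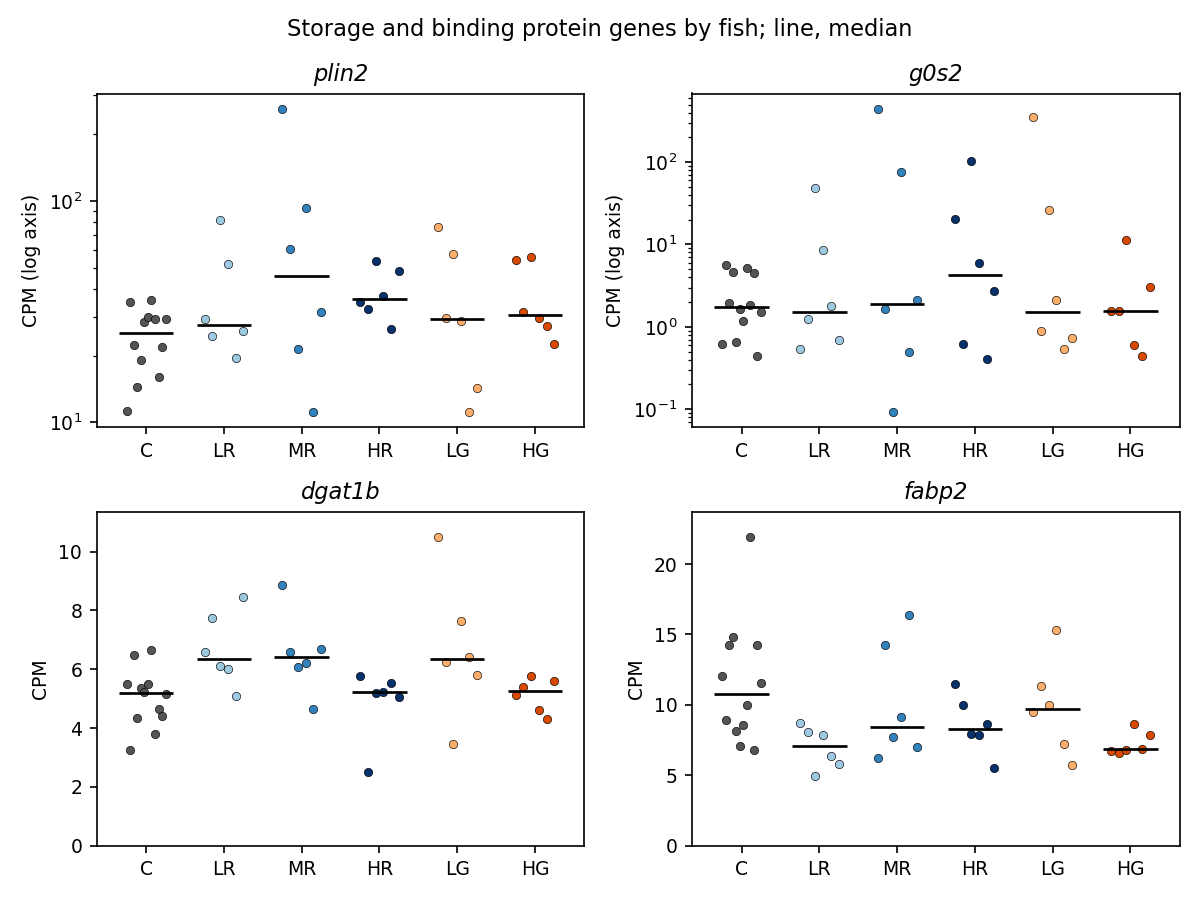
CPM of plin2, g0s2 (log axes), dgat1b and fabp2 (linear axes) in each of 12 control and 30 exposed fish, with the median of each group as a line. A few exposed fish stand far above the controls in plin2 (up to 260.9 CPM) and g0s2 (up to 446.9 CPM), and all LR and HG fish lie below the control median of fabp2.

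Of the enzymes that complete triacylglycerol, dgat2 (ENSDARG00000018846) varied little among controls, at 197.9 to 297.0 CPM, and widely among exposed fish. It was at 44.6 CPM in MR1, 44.9 CPM in LG1, 71.9 CPM in HR3, 94.6 CPM in LR3 and 106.5 CPM in MR4, and these were also the 5 exposed fish with the highest g0s2 values. Over 17339 genes these 5 were also the exposed fish farthest from their groups. Their mean absolute log2 distance was 0.50 (MR4) to 0.81 (LG1), against 0.41 at most in controls. Whether their values in these genes are part of that wider departure was not tested. In dgat2 other exposed fish exceeded every control, such as LR1 at 357.9 CPM. The group fold changes of dgat2 were small, from -0.21 to -0.03 with SE of 0.12 to 0.26. The value was 0.00 without MR1, 0.06 without LG1, 0.07 without LR3 and -0.04 without HR3. The related dgat2-like gene (ENSDARG00000003635) was at 92.0 to 138.9 CPM in controls and was at 24.5 CPM in LG1 and 38.8 CPM in MR1. Its log2 fold change was negative in all 5 groups (-0.40 to -0.05, smallest unadjusted p = 0.0377 in LR by the quasi-likelihood test), and was -0.20 without LG1, -0.01 without MR1, -0.17 without LR3 and -0.14 without HR3.

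The DGAT1 type forms an unrelated branch with the same activity. Its gene dgat1b (ENSDARG00000054914) was at 3.26 to 6.64 CPM in controls and at medians of 6.34 CPM in LR, 6.40 CPM in MR and 6.34 CPM in LG, with 2 fish of each above every control. Its log2 fold change was 0.40 in LR (SE 0.14), 0.35 in MR (SE 0.15) and 0.39 in LG (SE 0.18), with adjusted p of 0.408, 0.390 and 0.628 by the quasi-likelihood test, against -0.06 in HR and 0.02 in HG. It was 0.25 without MR1 and 0.23 without LG1. The paralogue dgat1a (ENSDARG00000031465) was at 0.55 to 2.40 CPM in controls. Above every control were 6 of 30 exposed fish: MR1 (7.35 CPM), MR4 (6.11 CPM), HR3 (5.95 CPM), LG3 (4.29 CPM), LG1 (2.83 CPM) and LR3 (2.74 CPM). All of these but LG3 were named above among the fish farthest from their groups. MR5 (0.54 CPM) was below every control. Group medians were below the control median (1.579 CPM) in LR, MR and HG and above it in HR and LG. The log2 fold change was 0.89 in MR (SE 0.44), 0.52 in HR (SE 0.30) and 0.38 in LG (SE 0.32). It was -0.27 in LR (SE 0.30) and -0.45 in HG (SE 0.27). The value was 0.40 without MR4, 0.008 without HR3 and 0.005 without LG3.

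Lipases of the patatin-like family gave small differences. The gene whose hits are pnpla2 and pnpla3 (ENSDARG00000044086), which hydrolyse triacylglycerol, was at 7.81 to 28.1 CPM in controls with fold changes of -0.37 (HG) to 0.05 (HR), and the lysophospholipase gene pnpla6 (ENSDARG00000010773) at 9.51 to 22.2 CPM with -0.02 (HR) to 0.29 (LG, 0.14 without LG1). Transcripts of the former differed in sign. The transcript comp120667_c1_seq1 had 1.17 in MR (SE 0.34, adjusted p = 0.271 by the quasi-likelihood test), while comp121335_c7_seq18 had -0.56 (SE 0.26). Of these, comp120667_c1_seq1 is not listed for LG, so it may lie near the minimum of reads, and CPM levels leave it out. In pnpla7a, comp123667_c0_seq16 had 1.06 in MR (SE 0.30, adjusted p = 0.267 by the quasi-likelihood test), with all 6 fish above the control median, and the gene sum had 0.28. The study listed pnpla3 and pnpla7a transcripts from these fish too. The remaining lipases, pnpla4, pnpla8 and pnpla8-like, had values between -0.28 and 0.45.

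Among the binding proteins, fabp10a (ENSDARG00000038439), the liver type of fish, held 4888 to 9168 CPM in controls and 3365 to 13050 CPM in exposed fish, with fold changes of -0.17 to 0.09. The intestinal type fabp2 (ENSDARG00000006427) was the member with the smallest p in LR and in HG. It was at 6.79 to 21.9 CPM in controls (median 10.8 CPM), at 4.93 to 8.70 CPM in LR and at 6.60 to 8.61 CPM in HG, so that all 12 of these fish lay below the control median and 3 and 2 of them below every control. The log2 fold change was -0.74 in LR (SE 0.22, adjusted p = 0.296 by the quasi-likelihood test, exact permutation p = 0.00889) and -0.67 in HG (SE 0.21, adjusted p = 0.527 by the quasi-likelihood test, exact permutation p = 0.0126). In HR it was -0.43, in LG -0.23 and in MR -0.19. The gene rests on 1 transcript in a component with 8 transcripts that hit another gene, and the sum of that component had -0.29 in LR and 0.12 in HG. The summed level of 2 intestine markers, apoa4 and anpepb, was 521.2 to 2930 CPM in controls, 889.8 to 1857 CPM in LR and 886.5 to 3100 CPM in HG, and its part in the fabp2 values was not tested.

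The other binding proteins gave few differences. The gene fabp1a (ENSDARG00000019357), of the liver type in mammals, stayed between 0.26 and 3.30 CPM in all groups, with 0.80 in LR (SE 0.31, adjusted p = 0.427 by the quasi-likelihood test). The gene fabp6 (ENSDARG00000044566) had 1.45 in LG (SE 0.69) and 0.70 without LG4, with fish from 0.20 to 16.7 CPM and an exact permutation p of 0.358. The adipocyte type fabp11a (ENSDARG00000090113) was at 11.1 to 25.8 CPM in controls and 7.05 to 21.5 CPM in exposed fish. Of the other adipocyte markers only cfd was matched, at 99.1 to 536.8 CPM in controls and 153 to 782.7 CPM in exposed fish, and its part in these values was not tested.

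The exposed groups were also compared with each other in 1 fit of 42 fish, in 6 contrasts. No gene of 20085 passed FDR 0.1 in any of them. The most members with an unadjusted p under 0.05 were in MR against HR, 6 of 30 where 3.6% of all genes had such a p: acaca (log2 ratio 1.80, SE 0.67), fasn (1.75, SE 0.64), elovl6 (1.28, SE 0.56), plin2 (1.03, SE 0.48), fabp3 (0.63) and dgat1b (0.41), with an adjusted p of 0.999 by the quasi-likelihood test in each. MR against LR gave 3 of 30 (4.49% of all genes), with plin2 at 1.03 (SE 0.48). No direct contrast was refitted with a fish left out. Against controls the plin2 value in MR was 1.69 with all fish and 0.81 without MR1, so both plin2 ratios of MR may depend on this fish. The MR values of acaca and fasn against controls fell to 0.63 and 0.43 without MR2. The genes acaca, fasn and elovl6 also varied together from fish to fish, so their p-values are not independent of each other. HR against LR, LG against HG and LR against LG gave 2 each (2.73%, 8.77% and 3.24%), and HR against HG, Roundup and glyphosate at 10 mg/L, gave 0 (5.58%). The active ingredient and its formulation were compared at matched doses in these last contrasts. At 10 mg/L (HR over HG) the 95% intervals of all 30 members held 0, and the log2 ratio was 0.08 for plin2 (-0.85 to 1.01), -0.41 for fasn (-1.64 to 0.81) and -0.37 for acaca (-1.64 to 0.90). At 0.01 mg/L (LR over LG) the intervals of 28 members held 0, with 0.10 for plin2 (-0.83 to 1.03), and the others were fabp2 at -0.51 (-0.99 to -0.02) and fabp6 at -1.98, with an adjusted p of 1.0 by the quasi-likelihood test in both. The fish did not show that Roundup and glyphosate differed in these genes, nor that they acted alike.

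Upstream of the members, a list of 33 genes that supply precursors or regulate synthesis, chosen with results of these data known, gave 0 calls in all 5 groups by the quasi-likelihood test. The exact test of edgeR called 5 of them in MR (1.27% of all genes), 3 in LG (0.583%), 1 in LR (0.533%) and 1 in HR (0.837%). DESeq2 called 4 in MR (1.27% of all genes) and 1 in LR (0.648%). In MR 10 of them had an unadjusted p under 0.05 with a positive fold change and 1 with a negative one, against 6 and 1 in HR, 5 and 0 in LR, 5 and 1 in LG and 1 and 1 in HG. Over all genes such a p was held by 10.8% in MR, 8.2% in HR, 9.43% in LR, 7.66% in LG and 7.44% in HG. The list median was 0.25 in MR and -0.02 to 0.09 elsewhere. The gene srebf2, a master regulator of cholesterol synthesis, was at 13.7 to 32.1 CPM in controls and 19.5 to 81.8 CPM in MR, with log2 fold changes of 1.03 in LR (SE 0.23, adjusted p = 0.149 by the quasi-likelihood test) and 1.03 in MR (SE 0.24, adjusted p = 0.134). The related srebf1, which drives fatty acid synthesis genes in mammals, had 0.50 in MR (SE 0.20). Positive values in MR also came from insig1 (1.31) and scap (0.77), which hold or escort these factors. Others were pgd (0.50), which makes NADPH, and acsl3 (0.64), which activates fatty acids. Reads sufficed to test insig1 only in MR and LG, so the filter itself favoured a positive value there. The median of srebf2 was 19.9 CPM in controls, 28.5 CPM in HR, 29.55 CPM in LG and 20.75 CPM in HG. The paper had reported srebf2 as raised in LR, MR, HR and LG, and insig1 in MR, so these values are not independent evidence. The acetyl-CoA synthetase gene acss1 had 2.29 in LG with fish from 1.38 to 69.2 CPM around a median of 2.68 CPM. In MR scap reached 43.7 CPM around a median of 14.7 CPM. Genes of this list and the next were not refitted with a fish left out, so how far their values rest on single fish was not tested.

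Downstream, a list of 39 genes of glycerolipid assembly, droplets and lipolysis also gave 0 calls by the quasi-likelihood test, and its median lay between -0.09 and 0.01. The exact test of edgeR called 1 in MR (1.27% of all genes). DESeq2 called 1 each in MR (1.27%) and HR (0.666%). Those with an unadjusted p under 0.05 were 2 positive and 3 negative in LR, 4 and 2 in HR, 3 and 1 in MR, 1 and 3 in LG and 1 and 0 in HG, beside the shares of all genes given for the other list. Among them slc27a4, a fatty acid transport protein, had 1.04 in MR (SE 0.31) and 1.13 in LG (SE 0.41). It was not tested in LR for want of reads, and the paper had reported it as raised in MR. The gene fitm2, needed for droplet budding, had 0.81 in LR and 0.87 in MR, where the median was 1.98 CPM and the highest fish 6.645 CPM. The gene pparda, a nuclear receptor that fatty acids bind, had 0.57 in HR (SE 0.15). Its median was 42.8 CPM in HR, 39.0 CPM in LR and 35.8 CPM in MR, against 28.0 CPM in controls, 28.9 CPM in LG and 31.1 CPM in HG. The monoacylglycerol acyltransferase genes mogat2 and mogat3a had -0.52 and -0.56 in LR.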

How the data were processed

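Livers of 42 female brown trout were profiled by RNA-seq, and 3 MG fish were not analysed here. The 5 tables hold raw counts per Trinity transcript for 12 controls and 6 exposed fish. The authors made these counts by mapping reads to their own assembly with Bowtie2 2.1.0, keeping 1 hit per read, and counting hits with SAMtools 0.1.18, and annotated transcripts by Blastx against Ensembl proteins, so reads of near-identical copies may be split. The deposited log2 columns (fold change and mean CPM), the deposited p-value and FDR columns and the deposited score of direction hold the authors' edgeR comparison and were not used. A repeated header line was removed from the HR table.

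Transcripts were tested if 6 or more of the 18 fish had 1 or more reads. The test was that of edgeR 4.0.16 in R 4.3.3 (TMM, 2-sided quasi-likelihood F-test, Benjamini-Hochberg over all features, FDR below 0.1), run again on counts summed per annotated gene. CPM values use TMM library sizes over 42 fish and transcripts listed in all 5 tables. Log2 CPM adds a prior count of 2, and the exact permutation test (2-sided) ran over all 18564 splits of 18 fish. Transcript lengths were not used, so levels are not compared between genes. Intervals are 95% intervals from the standard error by the normal distribution, so they are somewhat narrow for groups of this size. Depth ran from 10223638 to 33291845 counts, and counting error adds most to genes near 1 CPM. The scripts were tested on simulated data.

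Named genes were those called at FDR 0.1, the most abundant gene of each family, and the 4 with the smallest p in each comparison with a mean of at least 1 CPM. Other genes were chosen after their values were seen. Members and lists were chosen with earlier results of these data known. Marker genes were matched by symbol for hepatocytes (11 genes), adipocytes (1 beside a member), exocrine pancreas (3), red cells (4), leucocytes (7) and intestine (2). Summed levels of the pancreas markers were 37.5 to 119.0 CPM in controls and 33.0 to 94.4 CPM in exposed fish. Those of the red cell markers were 545.6 to 1471 and 703.6 to 1915 CPM, and of the leucocyte markers 122.0 to 301.9 and 103.4 to 267.5 CPM. The leucocyte median was 120.2 CPM in MR and 127.6 CPM in HG, against 175.2 CPM in controls, 173.2 CPM in LR, 182.9 CPM in HR and 196.6 CPM in LG. The part of these cells in the member values was not tested. The alternatives were the exact test of edgeR, DESeq2 1.42.0, other size factors, other filters, sums per component, a replicate block, 1 fit of all groups, FDR below 0.05 and each exposed fish left out.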

Additional observations from a re-analysis of the deposited data

Results flagged for a closer look

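Of the 95 sets of 6 exposed fish (19 named genes in 5 groups), 12 held a fish far from the others, with a gap to its nearest neighbour that exceeded Dixon's 95% critical value for 6 values. For normally distributed values chance alone flags about 1 set in 20. The rule was applied to CPM without a log transform, so that rate need not hold here. Among storage genes, plin2 was at 260.9 CPM in MR1 against 92.5 CPM in the next fish, dgat1a was at 5.95 CPM in HR3 against 1.84 CPM, and dgat1b was lowest in HR2, at 2.49 CPM against 5.04 CPM. The lysophospholipase gene pnpla6 stood out in 3 groups, at 20.1 CPM in MR1 against 14.9 CPM, at 19.2 CPM in HR2 against 13.9 CPM and at 26.1 CPM in LG1 against 17.1 CPM. In fatty acid synthesis, acaca was at 421.3 CPM in LR1 against 161.7 CPM. Among binding proteins, fabp1a was at 2.72 CPM in HR4 against 1.42 CPM and at 3.30 CPM in LG5 against 1.43 CPM, fabp6 was at 11.5 CPM in MR2 against 4.31 CPM and at 4.51 CPM in HG6 against 1.67 CPM, and fabp11a was lowest in HR6, at 11.1 CPM against 13.8 CPM. MR1 and HR2 each held 2 of these values and the other 8 fish held 1 each. MR1 and LG1 were also the fish farthest from the median of the other fish of their group over 17339 genes.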

How the results depend on the processing

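The count of members called was 0 in every comparison under RLE size factors, without a filter, with a minimum above 1 CPM in 6 fish, with component sums, FDR below 0.05, 1 fit of all groups and, for the direct contrasts, fits of the groups compared alone. It was not 0 under the other tests. The exact test of edgeR called 9 transcripts (0.992% of all transcripts) and 1 gene (1.27% of all genes) in MR and 1 transcript (0.671%) in HR. DESeq2 called 5 transcripts (0.743%) and 1 gene (1.27%) in MR. Leaving out 1 exposed fish gave 0 to 4 transcripts and 0 to 1 gene in MR, with plin2 called without MR3 and without MR5, and 0 in the other groups. The share of all features called in those fits is not given here, so these counts cannot be set against it. For the 95 fold changes of named genes, 663 of 665 alternatives that kept all fish kept direction and side of the threshold, and plin2 in MR passed it in the other 2, at 1.69 and 1.71. A change of direction was counted only for values at least 1 SE from 0 with all fish, and 11 of the 665, all closer to 0, had the other sign. Of 570 values with 1 fish left out, 49 that lay within 1 SE of 0 had the other sign, and fabp6 in MR ran from -0.074 to 1.048, negative without MR2, which held 11.5 CPM. The cause was not tested.

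Fish with the same number did not deviate together (Pearson's r -0.341 to 0.214, with 1 or 2 of 6 pairs over 0.1 in each comparison), so the numbers do not pair them. With the replicate block 0 members were called in every comparison. Reads of the isoforms of a component are shared, and fabp1a, fabp6, dgat1a, elovl7b and fads6 lay near 1 CPM or below, where counting error is large.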
